A study of Mus musculus with 11 samples.

Results

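The miR-34 family was followed in the cortex of mice with pMCAO, a stroke model in which the middle cerebral artery is closed for good, on day 3 after the operation. The members were chosen by name, as the entries mmu-miR-34a-5p, mmu-miR-34b-5p, mmu-miR-34b-3p, mmu-miR-34c-5p and mmu-miR-34c-3p (the species prefix is left out from here on), and these are 5 of the 1907 mature miRNA names that each count table lists. All 5 were read in all 11 libraries, and all 5 passed the filter on low counts. The study compared 6 sham-operated mice with 5 pMCAO mice, all male Balb/cOlaHsd, aged 3 months by their labels and 3 to 6 months by the methods. In pMCAO the left artery was closed by heat without reperfusion, whereas in the sham operation it was exposed and lifted but kept open. The labels give the tissue as cortex for sham and as peri-ischemic cortex for pMCAO, while the methods use the second name for both groups, so a difference in the piece of cortex taken cannot be told apart from the operation. The names of the deposited tables carry the word vehicle for both groups, with no agent or dose given. All mice had isoflurane anaesthesia for the operation and tribromoethanol before perfusion, and no transgene is named.

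A mature miRNA is cut from one arm of a hairpin precursor, the 5p or the 3p arm, and its seed near the 5′ end pairs with target mRNAs and lowers their output. The miR-34 hairpins are known as direct transcriptional targets of the tumour suppressor p53, and their 5p arms repress mRNAs of cell cycle progression and survival, among them those of cyclin-dependent kinases, Bcl2 and Sirt1. miR-34a is made in many tissues, brain included, from its own gene. miR-34b and miR-34c come from a shared primary transcript and are best known from testis and from epithelia with motile cilia, where the miR-449 family, which carries the same seed, is also made.

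In RefSeq (GRCm38.p6), Mir34a lies at chr4:150068454-150068555 on the plus strand, where it overlaps an exon of the unclassified transcript Gm37795, and the nearest protein-coding gene, Gpr157, is 18810 bases away. Mir34c (chr9:51103034-51103110) and Mir34b (chr9:51103562-51103645) lie on the minus strand with 451 bases between them, both within an intron of Btg4, a gene of the opposite strand. The sequence table matched 4 of the 5 members and held no mature entry for miR-34c-5p. Those 4 are shown with the other arm of miR-34a and the miR-449 entries that share the seed, because the shared and the differing letters decide which names could compete for the same targets or the same reads. Each is written 5′ to 3′ with the seed, bases 2 to 8, in capitals.

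miR-34a-5p: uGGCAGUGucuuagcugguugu

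miR-34b-5p: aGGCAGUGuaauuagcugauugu

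miR-449a-5p: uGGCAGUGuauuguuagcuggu

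miR-449c-5p: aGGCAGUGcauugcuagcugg

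miR-34b-3p: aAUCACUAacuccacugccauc

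miR-34c-3p: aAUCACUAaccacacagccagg

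miR-34a-3p: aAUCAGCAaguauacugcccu

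The seed GGCAGUG was found in 4 of the 1679 mature names of that table, and these were the first 4 sequences above. miR-34c-5p and miR-449b had no sequence there, so they could not be counted. Their absence from the 4 does not mean that they lack this seed. Sequences were compared position by position from the 5′ end, without gaps. miR-34a-5p had the same letter as miR-34b-5p at 11 of 22 positions and as miR-449a-5p at 15 of 22. These counts understate the likeness and do not rank it, because letters after the seed are shifted. miR-34a-5p has 22 bases and miR-34b-5p 23, and a stretch shared by miR-34a-5p, miR-34b-5p and miR-449a-5p starts at different positions. The seed AUCACUA was found in 2 names, miR-34b-3p and miR-34c-3p, which had the same letter at 17 of 22 positions. How reads matching several miRNAs were counted is not given in the sources used here.

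miR-34a-5p was the abundant member and the only one called different, and it was lower after pMCAO. Levels are given as CPM, counts divided by a library size that edgeR's TMM method estimates from most of the miRNAs. In sham replicates 1 to 6 miR-34a-5p stood at 4897, 6600, 6364, 6607, 3822 and 5664 CPM. In pMCAO replicates 1 to 5 it stood at 2638, 1842, 5130, 3421 and 1935 CPM. Of the pMCAO libraries, 4 of 5 lay below the lowest sham library, and replicate 3 lay inside the sham range. The means were 5659 ± 1117 (SD, n = 6) and 2993 ± 1353 CPM (SD, n = 5), so that the pMCAO level was 52.9% of sham in the fitted model (95% interval 36.6% to 76.5%).

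The log2 fold change of miR-34a-5p was -0.92 (SE 0.25), with an adjusted p of 0.0412 in edgeR's quasi-likelihood test (Benjamini-Hochberg over 479 miRNAs). Of all miRNAs tested, 7.1% were called in either direction and 2.71% were called lower, against 1 of the 5 members. By itself, the level on log2(CPM + 1) differed by -1.001, with p = 0.0108 in the exact two-sided permutation test over all 462 arrangements of the libraries. This p is not adjusted for the names tested in this way, miR-449c-3p and 8 others. The edgeR call was close to the threshold of 0.05 and was lost in most fits that left out 1 library. It held without sham replicate 1, sham replicate 5 or pMCAO replicate 3, with adjusted p of 0.0473, 0.0313 and 0.00402 from edgeR. It was lost without sham replicate 2, 3, 4 or 6, with adjusted p of 0.0972, 0.0952, 0.0757 and 0.0639, and without pMCAO replicate 1, 2, 4 or 5, with 0.0797, 0.107, 0.0558 and 0.0957. In these 11 fits the log2 fold change lay between -1.21 and -0.78, and the unadjusted edgeR p between 6.6e-05 and 0.00823. The call was also lost with upper-quartile scaling (adjusted p = 0.0599), total counts alone (0.0540), edgeR's robust fit (0.0532) and a demand for 10 counts in each library (0.0535), and it held with DESeq2 (0.00758).

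**Figure D1:**
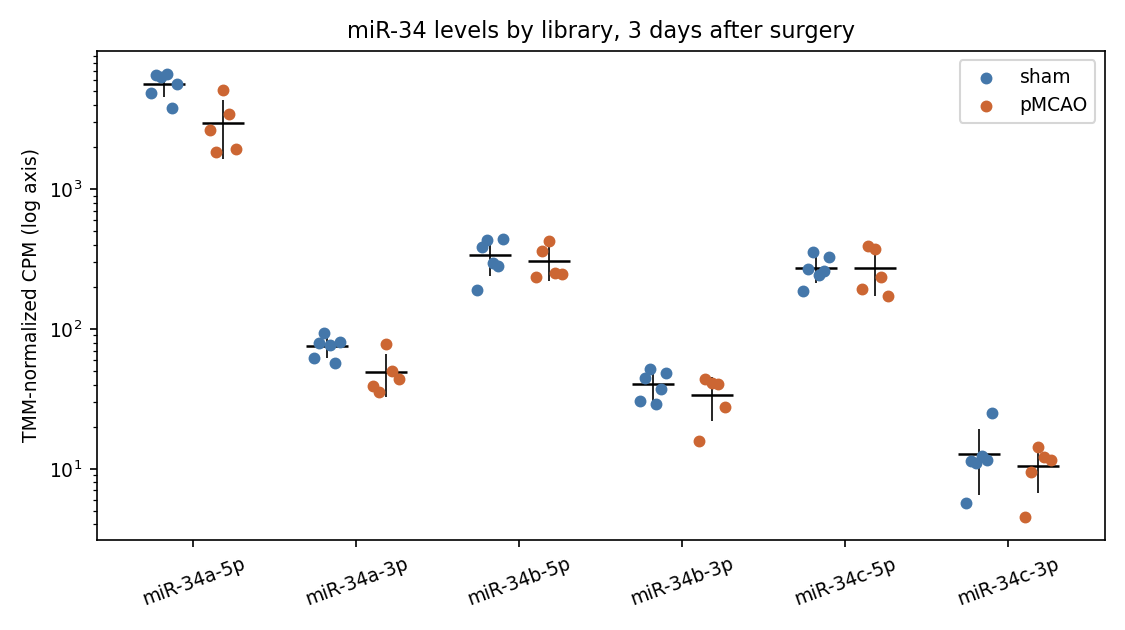
Level of each miR-34 name in each library, in TMM-normalized CPM on a log axis, for 6 sham (blue) and 5 pMCAO (orange) libraries, with the group mean (horizontal line) and SD (vertical line). miR-34a-5p stands far above the others, and 4 of its 5 pMCAO points lie under the lowest sham point, whereas the points of the miR-34b and miR-34c names overlap between the groups.

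Markers of some other cell types moved in the same libraries. miRNAs typical of myeloid cells (miR-223-3p, miR-142a-3p, miR-142a-5p, miR-146a-5p and miR-155-5p) were called higher in 5 of 5 names, against 4.38% of all miRNAs tested, with a summed level of 326 to 790 CPM in sham and 870 to 3982 CPM in pMCAO. Their sum was highest in pMCAO replicate 2, which had the lowest miR-34a-5p, and next highest, at 1909 CPM, in pMCAO replicate 3, which had the highest miR-34a-5p of its group. Neuronal miRNAs (miR-124-3p, miR-9-5p, miR-128-3p, miR-138-5p and miR-132-3p) summed to 323338 to 411070 CPM in sham and 276188 to 326067 CPM in pMCAO. Of these, 1 of 5, miR-132-3p, was called lower, against 2.71% of all miRNAs tested. Fold changes were negative for 4 of the 5 and positive for miR-138-5p (log2 fold change 0.21, edgeR adjusted p = 0.431). Oligodendrocyte miRNAs (miR-219a-5p, miR-219a-2-3p and miR-338-3p) summed to 4283 to 5239 CPM in sham and 2528 to 4951 CPM in pMCAO. Of these, 1 of 3, miR-338-3p, was called lower, against 2.71% of all miRNAs tested. The edgeR adjusted p was 0.623 for miR-219a-5p and 0.710 for miR-219a-2-3p. None of the names in these 3 lists was at 0 in all libraries. In 3 further lists 2 names each were tested and 0 were called. They were erythrocyte (miR-451a and miR-144-3p), endothelium (miR-126a-3p and miR-126a-5p) and choroid plexus (miR-204-5p and miR-204-3p). The erythrocyte names, summed with miR-486a-5p, which was under the filter, stood at 636 to 4696 CPM in pMCAO. In sham they stood at 5327 CPM in replicate 1 and at 48.6 to 268 CPM in replicates 2 to 6. The log2 fold changes were 0.96 (SE 1.08) for miR-451a and 1.17 (SE 0.97) for miR-144-3p. Total counts also ran lower in pMCAO, from 744877 to 1411620 against 1429037 to 2319810 in sham, with no overlap. The part of cell make-up and of depth in the miR-34a-5p difference was not tested, and in bulk tissue fewer cells of a type and less RNA per cell cannot be told apart.

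The other arm of the same hairpin, miR-34a-3p, which is not among the 5 members, had lower values too but did not pass the test across all miRNAs. It stood at 62.1, 79.8, 94.3, 76.4, 57.5 and 81.1 CPM in sham replicates 1 to 6. In pMCAO replicates 1 to 5 it stood at 39.3, 35.4, 77.6, 50.04 and 44.0 CPM. The same 4 pMCAO libraries lay below the lowest sham library as for the 5p arm, and replicate 3 again lay within the sham range. The log2 fold change was -0.60 (SE 0.21, adjusted p = 0.106 by edgeR). Without pMCAO replicate 3 it was -0.83 and was called, with an adjusted p of 0.0167 from edgeR. The exact permutation test of this arm alone gave p = 0.0216.

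The miR-34b and miR-34c names of chromosome 9 did not pass any test between the groups. miR-34b-5p stood at 189, 387, 432, 296, 283 and 438 CPM in sham replicates 1 to 6 and at 234, 363, 428, 251 and 248 CPM in pMCAO replicates 1 to 5. Every pMCAO value lay inside the sham range. Its log2 fold change was -0.15 (SE 0.22, edgeR adjusted p = 0.766), and the 95% interval of the pMCAO level ran from 64.7% to 126% of sham.

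miR-34c-5p, the other 5p member of the cluster, stood at 187, 271, 358, 242, 258 and 329 CPM in sham replicates 1 to 6 and at 194, 392, 370, 235 and 173 CPM in pMCAO replicates 1 to 5. The pMCAO libraries spread on both sides of the sham range. The log2 fold change was -0.0093 (SE 0.23, edgeR adjusted p = 0.992), with a 95% interval of 71.0% to 139% of sham. That sign is not stable: it turned positive under 10 of 19 other settings, total-count scaling among them, as did that of miR-34b-5p under total-count scaling alone. A fall as large as the fitted one of miR-34a-5p, to 52.9% of sham, lay outside the intervals of miR-34b-5p and miR-34c-5p.

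The 3p arms of the cluster were read much less often. miR-34b-3p stood at 30.4, 44.4, 51.9, 28.9, 37.1 and 48.6 CPM in sham replicates 1 to 6 and at 15.7, 43.7, 40.8, 40.2 and 27.8 CPM in pMCAO replicates 1 to 5. Its log2 fold change was -0.25 (SE 0.26, edgeR adjusted p = 0.647), with an interval of 57.3% to 123% of sham. miR-34c-3p had 4 to 42 counts a library, so that counting error alone is large, and stood at 12.8 ± 6.37 CPM in sham (SD, n = 6) and 10.4 ± 3.75 CPM in pMCAO (SD, n = 5). The log2 fold change of miR-34c-3p was -0.27 (SE 0.35, edgeR adjusted p = 0.737), with an interval of 49.1% to 141% of sham. Groups overlapped for both 3p arms. Exact permutation tests of each name alone gave p = 0.630 for miR-34b-5p, 0.340 for miR-34b-3p, 0.859 for miR-34c-5p and 0.494 for miR-34c-3p.

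Across the 5 members, 1 was called lower and none higher, and the median log2 fold change was -0.25, beside 0.0015 over all 479 miRNAs tested. All 5 fold changes were negative in this fit, apart from the sign changes of miR-34c-5p and miR-34b-5p given above and that of miR-34c-3p without sham replicate 6 (0.041), as were 238 of the 479. Complete separation of the groups on CPM was seen for 0 of the 5 members, against 3.34% of all miRNAs tested that lay wholly lower and 4.18% that lay wholly higher in pMCAO. The plot of all tested miRNAs shows where the members fall: miR-34a-5p was the 37th most abundant miRNA in sham, and among the 13 called lower it had the 2nd most negative fold change and the 3rd largest fall in mean CPM.

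**Figure D2:**
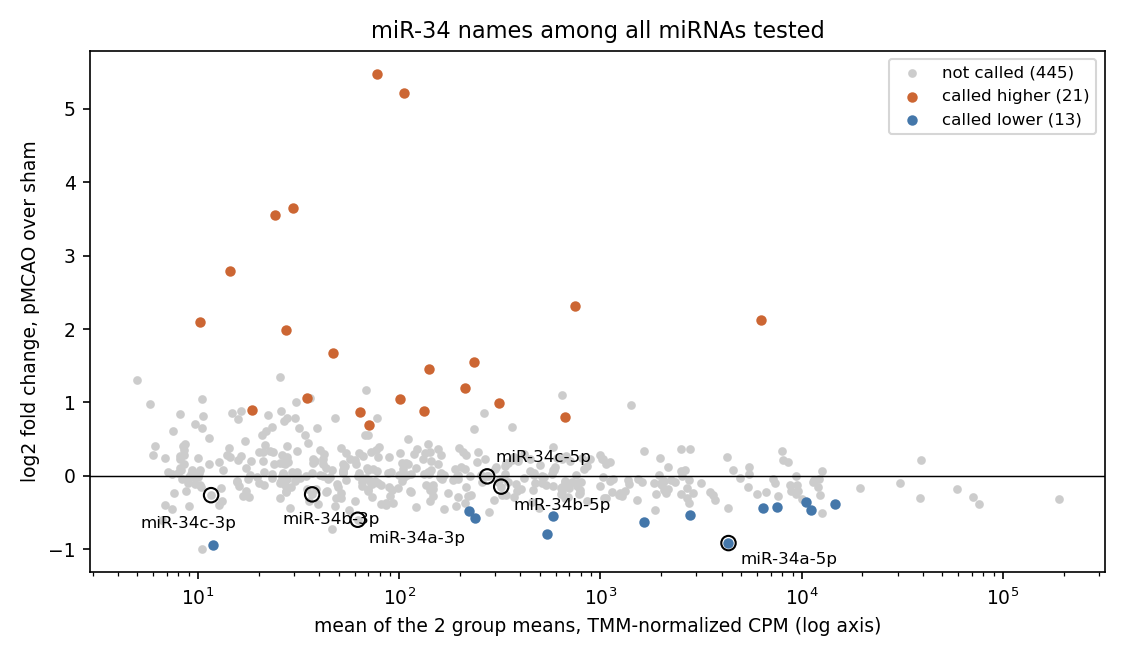
Log2 fold change of pMCAO over sham against the mean of the group means (TMM-normalized CPM, log axis) for the 479 miRNAs tested; orange points were called higher (21), blue points lower (13) and grey points not called, and circles mark the miR-34 names. miR-34a-5p lies at the lower edge among abundant miRNAs, and miR-34b-5p and miR-34c-5p lie near 0.

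Because miR-34a and the miR-34b/c cluster have separate genes, the members were also compared within each library, where library size and scaling cancel. In sham replicates 1 to 6 there were 26.1, 24.4, 17.8, 27.3, 14.8 and 17.2 counts of miR-34a-5p for each count of miR-34c-5p. In pMCAO replicates 1 to 5 there were 13.6, 4.70, 13.9, 14.6 and 11.2. The groups did not overlap, although the highest pMCAO library and the lowest sham library, 14.6 and 14.8, were close, and replicate 2 stood far below the rest. On log2 of the ratio (counts plus 1) the pMCAO mean was lower by 0.95 (difference -0.95, SE 0.34), with p = 0.00433 in the exact permutation test and 0.00866 after adjustment over the 2 ratios tested. Without pMCAO replicate 2 the difference was -0.65, and over the 11 fits without 1 library the exact p was at most 0.0143.

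Within the cluster the ratio did not pass its test. miR-34b-5p had 1.01 to 1.43 counts for each count of miR-34c-5p in sham and 0.925 to 1.44 in pMCAO, and the sham range lay inside the pMCAO range. The log2 difference was -0.0776 (SE 0.128), with p = 0.545 in the exact permutation test.

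**Figure D3:**
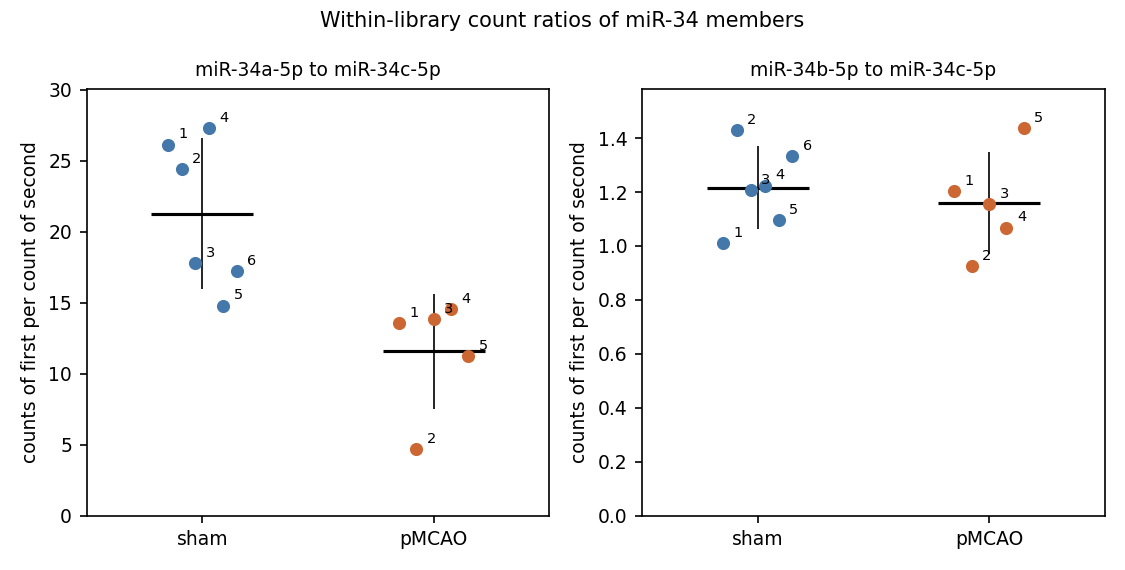
Counts of miR-34a-5p (left) and of miR-34b-5p (right) per count of miR-34c-5p in each library; points carry the replicate number, horizontal lines are group means and vertical lines SD. On the left the 5 pMCAO libraries lie between 4.70 and 14.6 and the 6 sham libraries between 14.8 and 27.3, whereas on the right the groups overlap.

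The make-up of the family's counts followed from these ratios and was not tested again. Of the counts of the 5 names, miR-34a-5p gave 89.4 ± 2.44% after sham surgery (SD, n = 6) and 81.6 ± 7.11% after pMCAO (SD, n = 5), with the lowest share, 69.5%, in pMCAO replicate 2. The difference was -7.80 percentage points, and -4.78 without that library. The 4 names of the cluster together gave 10.6% in sham and 18.4% in pMCAO. All 5 names together took 0.597 ± 0.108% of the counts of a sham library (SD, n = 6) and 0.383 ± 0.142% of a pMCAO library (SD, n = 5).

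**Figure D4:**
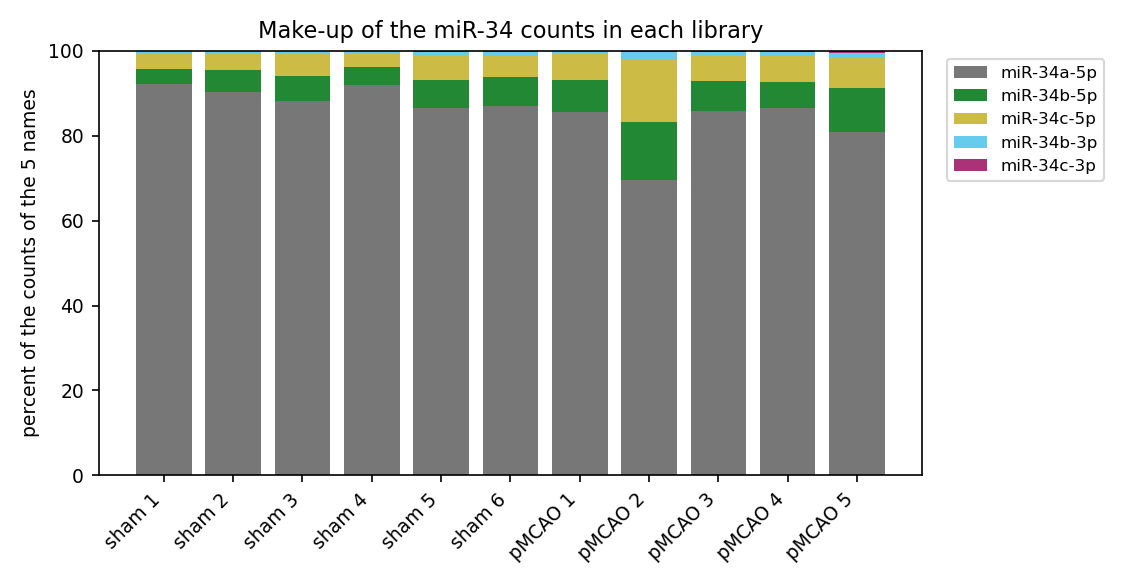
Share of the counts of the 5 miR-34 names that each name took in each library, in percent, stacked to 100. miR-34a-5p took 86.6% to 92.2% in sham and 69.5% to 86.4% in pMCAO, and pMCAO replicate 2 stands apart.

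The order of the levels was nearly the same in all libraries, with miR-34a-5p first, then miR-34b-5p, miR-34c-5p, miR-34b-3p and miR-34c-3p. Counts of different small RNAs also carry the efficiency with which each sequence was captured, which was not measured, so this is an order of counts. miR-34a-5p had 5.08 to 25.9 times the counts of miR-34b-5p. The neighbours miR-34b-5p and miR-34c-5p were close, with 0.925 to 1.44 counts of the first for each count of the second. The first was higher in 10 of 11 libraries, 6 of 6 sham and 4 of 5 pMCAO. Their SDs overlapped in both groups, but both names were read in the same libraries, and this order was not tested. miR-34c-5p had 5.85 to 12.4 times the counts of miR-34b-3p, which in turn had 1.95 to 5.33 times those of miR-34c-3p.

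In each of the 3 hairpins the 5p arm was the main product. For miR-34a sham libraries gave it 98.7 ± 0.146% of all hairpin counts (SD, n = 6), and pMCAO libraries 98.3 ± 0.344% (SD, n = 5). The difference was small, -0.379 percentage points, with p = 0.0152 in the exact permutation test and 0.0455 after adjustment over the 3 hairpins. With the same adjustment it held without sham replicate 5 (0.0476) or pMCAO replicate 4 (0.0286). It was lost in the other 9 fits without 1 library: 0.143 without sham replicate 1, 2, 4 or 6, 0.0714 without sham replicate 3 or pMCAO replicate 3, 0.0571 without pMCAO replicate 1, 0.1 without pMCAO replicate 2 and 0.171 without pMCAO replicate 5 (all from the exact permutation test). Without pMCAO replicate 5 the difference was also smallest, at -0.249 points. The 5p share of miR-34b was 89.1% in sham and 90.1% in pMCAO (exact permutation p = 0.498), and that of miR-34c was 95.6% and 96.1% (exact permutation p = 0.658).

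The miR-449 entries were near the limit of reading. Mir449a and Mir449c lie in an intron of Cdc20b on chromosome 13, and their 5p arms share the seed of miR-34a-5p and miR-34b-5p. miR-449a-5p had 8 to 32 counts a library. It stood at 17.1, 7.48, 7.51, 8.62, 10.9 and 10.1 CPM in sham replicates 1 to 6 and at 36.0, 29.5, 6.40, 6.82 and 18.1 CPM in pMCAO replicates 1 to 5. Replicates 1, 2 and 5 of pMCAO lay above every sham library and replicates 3 and 4 below every one, and the first 3 were also the libraries with the lowest miR-34a-5p. The log2 fold change was 0.86 (SE 0.43, edgeR adjusted p = 0.239). miR-449c-5p was under the filter of the edgeR test, with 4, 1, 4, 1, 1 and 2 counts in sham replicates 1 to 6 and 3, 4, 2, 5 and 8 in pMCAO replicates 1 to 5. Counts overlapped between the groups, and the levels were 1.38 ± 0.998 CPM in sham (SD, n = 6) and 3.73 ± 1.39 CPM in pMCAO (SD, n = 5). The difference on log2(CPM + 1) was 1.03, with p = 0.0195 in the exact permutation test and p = 0.00952 to 0.0397 without 1 library. These p are not adjusted for the names tested in this way, miR-449c-3p and 8 others. miR-449c-3p had 1 count in 1 library, and miR-449a-3p and miR-449b were at 0 in all 11 libraries. A 0 in 1 library, taken by itself, allows an expected count of up to 3 there, and all 11 together allow less.

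To see which miRNAs varied most like the members from library to library, log2(CPM + 1) was correlated over the 11 libraries with each of the other 478 miRNAs tested. These values are descriptions, since libraries share depth and group. For miR-34a-5p the closest were miR-181a-1-3p (Pearson's r = 0.952, Spearman's rho = 0.945), miR-34a-3p (r = 0.947, rho = 0.873), miR-23b-3p (r = 0.930, rho = 0.918), miR-195a-5p (r = 0.900, rho = 0.764) and miR-497a-3p (r = 0.868, rho = 0.855). The cluster ranked far down that list, miR-34b-5p at 117 (r = 0.390) and miR-34c-5p at 157 (r = 0.255), and miR-449a-5p was near its end at 462 (r = -0.74).

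For miR-34c-5p the closest name was its cluster partner miR-34b-5p (r = 0.884, rho = 0.836), and miR-34b-3p was the 3rd (r = 0.746, rho = 0.782), with miR-30c-1-3p between them (r = 0.785, rho = 0.700). miR-339-5p (r = 0.688) and miR-23a-3p (r = 0.686) followed. miR-34c-3p, with its few counts, ranked 25 (r = 0.509).

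Other miRNAs that p53 is known to raise, through transcription or through processing of their precursors, were taken as a list of 10 names, of which 9 are in the tables and 7 were tested. None was called higher and 1 was called lower, against 4.38% and 2.71% of all miRNAs tested, and 6 of the 7 had negative fold changes, with a median of -0.21. The 1 positive value, that of miR-192-5p, had an unadjusted p of 0.324 in edgeR and 0.407 in DESeq2. The called name was miR-16-5p, which restrains the cell cycle through cyclin mRNAs, at 7391 ± 899 CPM in sham (SD, n = 6) and 5457 ± 728 CPM in pMCAO (SD, n = 5). Its log2 fold change was -0.44 (SE 0.12, edgeR adjusted p = 0.0412), and the call held without sham replicate 1 or pMCAO replicate 3 (adjusted p of 0.0293 and 0.0168) and was lost without any 1 of the other 9 libraries (adjusted p of 0.0578 to 0.107). It was also lost with upper-quartile scaling (0.105), total counts alone (0.148), no filter (0.0542) and at least 10 counts in every library (0.0558), and held with DESeq2 (0.0296). The other 6 were miR-192-5p, miR-194-5p, miR-107-3p, miR-143-3p, miR-145a-5p and miR-15a-5p, with log2 fold changes from -0.24 to 0.16 and adjusted p of at least 0.232. miR-215-5p, with at most 2 counts, and miR-200c-3p, with 1 to 21 counts, were under the filter.

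**Figure D5:**
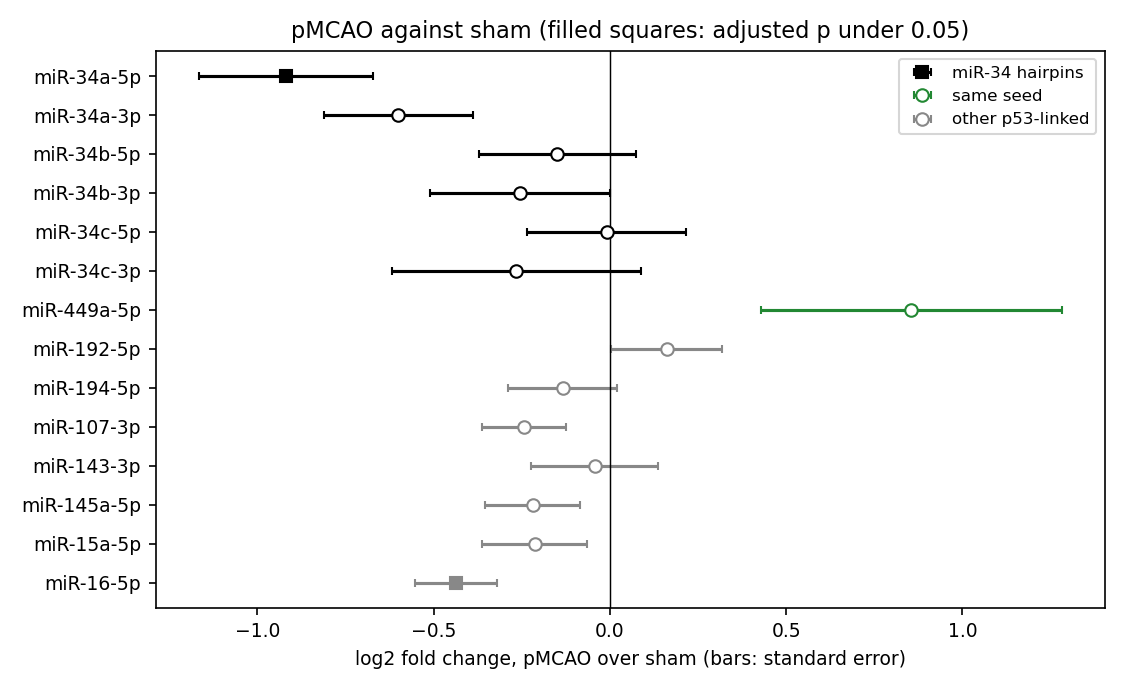
Log2 fold change of pMCAO over sham with its standard error for the miR-34 hairpin arms (black), miR-449a-5p (green) and 7 other p53-linked miRNAs (grey); filled squares passed an adjusted p of 0.05. The squares are miR-34a-5p at -0.92 and miR-16-5p at -0.44, and miR-449a-5p lies to the right of 0 with the widest bar.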

How the data were processed

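Small RNA of perfused mouse cortex (6 sham, 5 pMCAO) was sequenced on an Ion Torrent S5. The authors kept reads of a set length range, used Bowtie on mm10 and HTSeq on miRBase annotation, and deposited raw counts for each library; there were no molecular identifiers. The members and lists were chosen with earlier results of these data known. Named miRNAs were the members, the other miR-34 and miR-449 arms, the p53-linked list and cell type markers. The 5 closest in likeness to miR-34a-5p and to miR-34c-5p were named too.

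In R 4.3.3, edgeR 4.0.16 (filterByExpr with minimum count 10 and minimum total 15, TMM, glmQLFit and glmQLFTest, Benjamini-Hochberg) compared pMCAO with sham over 479 miRNAs, without covariates. Standard errors and 95% intervals came from this fit. Single levels, ratios and arm shares were compared by exact two-sided permutation tests. p-values set the difference between the groups against the spread between these samples. Total counts were 744877 to 2319810 a library. On simulated counts, in which 192 of 468 tested miRNAs were changed, 88.5% of the 2-fold changes were recovered. That share changed is far above the 34 of 479 called here, which makes the adjusted threshold easier to pass. The recovery is therefore no measure of power in these data. Alternatives were other scalings, DESeq2 1.42.0, edgeR's robust fit, other filters, pseudocounts, a replicate block and leaving out each library. Sequences and hairpin positions came from RefSeq (GRCm38.p6), and overlapping genes from GENCODE.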

Additional observations from a re-analysis of the deposited data

Results flagged for a closer look

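Of 26 groups of values checked for a sample far from the others, 2 held one, beside 1.3 that chance gives. The log2 ratio of miR-34a-5p to miR-34c-5p in pMCAO replicate 2 was 2.23, and the nearest library of its group was at 3.48; the difference between the groups without it is -0.65 (exact permutation p = 0.0143). The log2 of total counts in sham replicate 2 was 21.1, and the nearest sham library was at 20.7.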

How the results depend on the processing

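miR-34a-5p had a negative log2 fold change under all 19 alternatives (-1.21 to -0.76), but the call was lost in 12: with upper-quartile scaling (-0.87, adjusted p = 0.0599), total counts alone (-0.76, 0.0540), edgeR's robust fit (-0.92, 0.0532), at least 10 counts in every library (-0.88, 0.0535) and 8 of 11 fits without 1 library (all 11: -1.21 to -0.78). The ratio of miR-34a-5p to miR-34c-5p lay between -1.06 and -0.65 without 1 library, and its exact p stayed under 0.05.

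The numbers of called miRNAs moved by over 1.5 times, from 34: 18 (3 lower) with at least 10 counts in every library and 22 (3 lower) with the replicate block, and 16 to 36 without 1 library (13 to 27 higher, 2 to 13 lower). Lower calls were 4 with upper-quartile scaling and 8 without a filter; total counts alone gave 43 higher and 1 lower, and moved the median of all miRNAs to 0.18. Signs turned for miR-34c-5p with upper-quartile scaling (0.014), total counts (0.17), 10 counts in every library (0.030) and the block (0.0047), and, with total counts, for miR-34b-5p (0.027), miR-194-5p (0.033), miR-143-3p (0.15) and the level differences of miR-34b-5p (0.041) and miR-34c-5p (0.12). Without 1 library, ranges crossed 0 for miR-34c-5p (-0.18 to 0.13; level -0.21 to 0.089), miR-34c-3p (-0.41 to 0.041; level -0.43 to 0.0014), miR-143-3p (-0.13 to 0.11) and the 5p share of miR-34c (-0.0892 to 1.05 points); that of miR-34a lay between -0.444 and -0.249 points. The causes were not tested.

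The labels do not state whether replicate numbers pair the samples. Correlations of deviations ran from -0.0768 to 0.228 over 5 numbers and do not decide it. With the replicate block miR-34a-5p was at -0.99 (adjusted p = 0.0168), the call of miR-16-5p was lost (0.109), and the ratio to miR-34c-5p differed by -0.999, with the same direction in 5 of 5 pairs (exact sign-flip p = 0.0625, the smallest possible). Names with few counts, such as miR-34c-3p and miR-449a-5p, were not tested when 10 counts were asked of every library. For miR-449c-5p and for the adjusted p of the miR-34a 5p share, the values without each library were added after seeing the data.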
